A study of Saccharomyces cerevisiae and Saccharomyces pastorianus with 78 samples.

Results

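Messenger RNA levels of 58 yeast genes of ribosome biogenesis and RNA polymerase I were followed in *Saccharomyces cerevisiae* BY4741 after a detergent or an alcohol was added to growing cultures. The genes were given as a list of 58 systematic names, and all 58 were found among the 7127 features of the count table and passed the filter on low counts, which kept 6101 features. They were grouped by the role of their products into 6 RNA polymerase I subunits, 3 box C/D snoRNP proteins, 3 box H/ACA snoRNP proteins, 18 factors of the small-subunit processome and 40S assembly, 6 RNA helicases of 60S assembly, 13 nucleolar 60S assembly factors, and 9 late 60S assembly and export factors. BY4741 is a haploid laboratory strain, and every group was grown in rich YPD medium at 25 °C. The EtOH groups received 7% ethanol and the SDS groups 0.01% sodium dodecyl sulfate, an anionic detergent, and both were followed at 6 times, 0.5, 1 and 2 h and then 4, 8 and 20 h after the addition. The control group was collected before any addition, from the aliquot of the split culture that was then given EtOH. With 3 biological replicates in each of the 13 groups there were 39 libraries of poly(A) RNA. No control was taken from the aliquot given SDS, and no untreated group of later times was used here, so both courses share 3 control libraries, and time after addition cannot be told apart from time in culture.

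Eukaryotic ribosomes are assembled mainly in the nucleolus, where RNA polymerase I transcribes the long ribosomal RNA precursor. Box C/D and box H/ACA particles guide methylation and pseudouridylation of that RNA, the small-subunit processome folds and cleaves the part that becomes the 40S subunit, and a separate set of helicases, GTPases and scaffold proteins matures and exports the 60S subunit. In budding yeast the genes of this machinery are known as a regulon that is transcribed strongly in growing cells and repressed together under many stresses, and their promoters are known for a pair of short motifs named PAC and RRPE. Ribosomal RNA itself carries no poly(A) tail and was not measured here.

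Library totals were 3105804 for replicate 3 and 21167236 for replicate 2 of EtOH 8 h, and 6216014 to 9396494 for the other 37, with a median of 7706767 over all 39. The lowest single count of any of the 58 genes was 135. Within a group, the correlation of log expression between libraries was 0.943 to 0.994, and the lowest value joined replicates 1 and 3 of EtOH 20 h. The strain markers URA3, LEU2 and MET17 had 0 counts in every library, which allows up to 0.966 CPM (counts scaled to a common library total) in the smallest, and HIS3, of which this strain carries a partial deletion, had 310 to 2650 counts. STE2, the receptor made by cells of mating type a, had 935 to 6430 counts, while the alpha-cell genes MFALPHA1, MFALPHA2 and STE3 had 0 to 27, 37 to 264 and 8 to 224 counts. No stretch of 50 bases in any of the 58 genes occurred elsewhere in the genome, and only NOG2 overlapped another annotated gene, the small nucleolar RNA gene SNR191 on the same strand.

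Before the levels, the sequences that join these genes are shown for 5 of them: NOP7, RPA135 and NOP56, which are among those that fell far after SDS, and SOF1 and NOG2, which did not pass the fold limit at the earliest time. Each line is the stretch from 200 to 71 bases before the start codon, read 5′ to 3′ on the gene's strand from RefSeq assembly R64. Capitals mark matches on either strand to the PAC core GATGAG, its longer form GCGATGAG, the RRPE core AAAATTTT or a longer RRPE form, GAAAAATTT. Overlapping matches run together. The longer PAC form contains the PAC core. The longer RRPE form does not contain the RRPE core, so a gene can hold it without that core. The stretches lie at chrVII:695217-695346 (plus strand) for NOP7, chrXVI:581267-581396 (minus strand) for RPA135, chrXII:545897-546026 (plus strand) for NOP56, chrXII:127323-127452 (plus strand) for SOF1 and chrXIV:723183-723312 (minus strand) for NOG2.
NOP7: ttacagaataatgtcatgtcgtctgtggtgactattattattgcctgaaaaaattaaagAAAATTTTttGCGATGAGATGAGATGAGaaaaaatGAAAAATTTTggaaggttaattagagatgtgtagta
RPA135: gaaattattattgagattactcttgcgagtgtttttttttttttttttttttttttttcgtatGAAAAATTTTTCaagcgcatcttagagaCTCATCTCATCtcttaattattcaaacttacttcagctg
NOP56: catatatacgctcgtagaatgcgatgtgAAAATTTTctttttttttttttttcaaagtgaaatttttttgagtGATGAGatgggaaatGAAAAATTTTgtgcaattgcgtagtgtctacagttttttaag
SOF1: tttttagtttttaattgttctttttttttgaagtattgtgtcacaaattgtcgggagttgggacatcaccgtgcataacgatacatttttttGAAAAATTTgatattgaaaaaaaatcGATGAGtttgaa
NOG2: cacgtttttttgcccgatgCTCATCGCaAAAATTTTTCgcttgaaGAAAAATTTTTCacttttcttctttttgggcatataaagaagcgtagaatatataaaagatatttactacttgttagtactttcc

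NOP7 holds 3 overlapping copies of the PAC core between its RRPE matches, and RPA135 holds an RRPE match followed by overlapping PAC cores on the other strand. SOF1 has a PAC core and the longer RRPE form but no RRPE core in this window. Over windows of 300 bases before the start codon, the PAC core was present in 54 of the 58 genes (93.1%), against 1148 of the 6001 protein-coding genes with a full window (19.1%). The longer PAC form was present in 29 of the 58 (50%), against 243 of all 6001 (4.05%). The RRPE core was present in 49 of the 58 (84.5%), against 565 of 6001 (9.42%), and the longer RRPE form in 34 (58.6%), against 394 (6.57%). Both cores together occurred in 47 of the 58 (81%) and in 267 of all 6001 (4.45%). The PAC core nearest to the start codon lay 62 to 199 bases away, with a median of 113, and the nearest RRPE core 26 to 240 bases away, with a median of 132. These matches are a description of the letters in these windows and no test was made on them.

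At SDS 0.5 h, the first time after addition, mRNAs of nearly the whole machinery were lower than in the control. Of the 58 genes, 50 fell by the rule used for every call here, a Benjamini-Hochberg adjusted p under 0.05 over all 6101 features in edgeR's quasi-likelihood test and an absolute log2 change of at least 1, and none rose. Among all features tested, 10.6% were called lower in that comparison. The median log2 change of the 58 genes was -1.75, against 0.02 for all features tested, and single genes ranged from -3.00 for NOP7 to -0.35 for SOF1. At EtOH 0.5 h the median log2 change of the 58 was 0.31 and none was called, where few features were called at all, 1.26% lower and 0.918% higher. CPM are shares of a library's mRNA, so total mRNA per cell was not measured, and in these bulk cultures a change in some cells and a smaller change in all of them cannot be told apart.

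**Figure D1:**
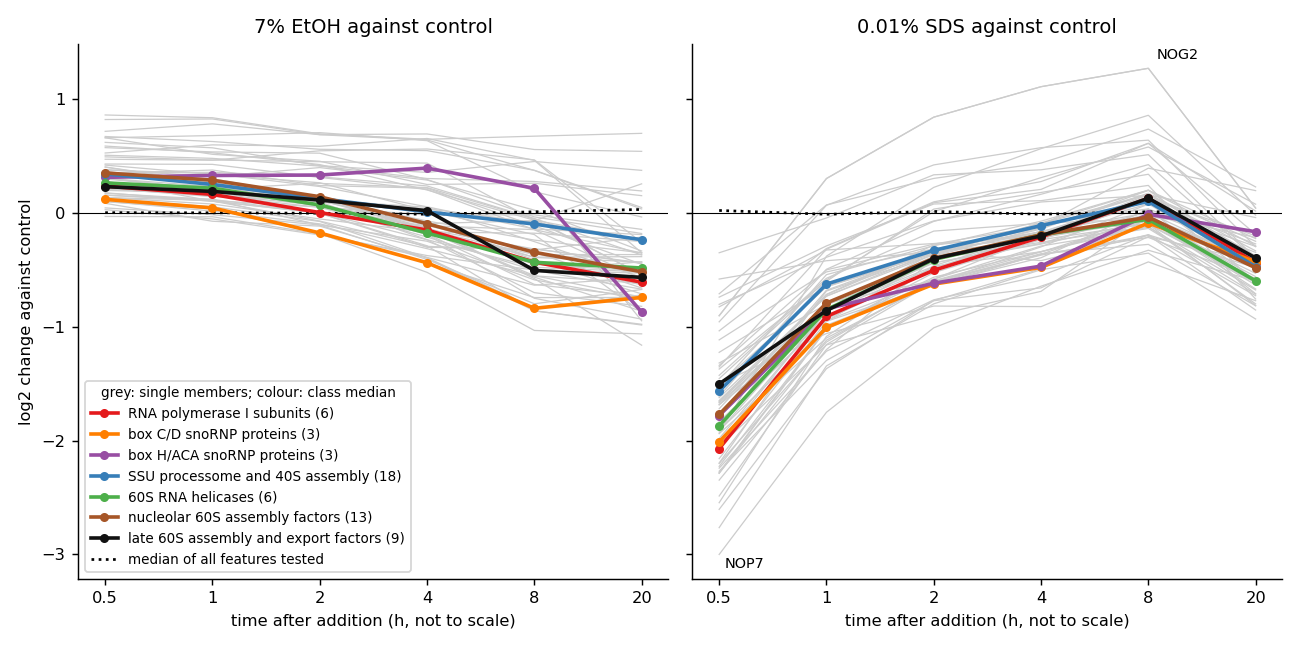
Log2 change against the control (vertical axis) by time after addition (horizontal axis, in h, not to scale) for EtOH on the left and SDS on the right; grey lines are the 58 genes, coloured lines the medians of the 7 roles and the dotted line the median of all features tested. Most SDS lines lie lowest at 0.5 h, where they span -3.00 to -0.35, and come near 0 by 8 h, while the EtOH lines start slightly above 0 and end mostly below it at 20 h.

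Of the 6 RNA polymerase I subunit genes, 5 fell at SDS 0.5 h, with a median log2 change of -2.07 for the role. RPA190 (YOR341W), which encodes the largest subunit and forms the active centre with the next largest, had 115, 144 and 168 CPM in the 3 SDS 0.5 h libraries, against 632, 621 and 656 CPM in the 3 controls. RPA135 (YPR010C), the second largest subunit, had 109.9, 160.0 and 193 CPM at SDS 0.5 h, against 751, 695 and 804 CPM in the control. In both genes every SDS library lay far below every control, and the log2 changes were -2.16 (SE 0.16, adjusted p = 3.13e-13) and -2.28 (SE 0.19, adjusted p = 9.69e-12). RPA43, the stalk subunit that contacts the initiation factor Rrn3, had 21.6, 34.2 and 35.0 CPM at SDS 0.5 h, against 139.7, 143 and 161 CPM in the control, a log2 change of -2.29 (SE 0.20, adjusted p = 1.56e-11). RPA49 and RPA34 encode a heterodimer specific to this polymerase. Their log2 changes were -1.98 (SE 0.19, adjusted p = 1.82e-10) and -1.65 (SE 0.15, adjusted p = 6.84e-11), and in neither gene did the groups overlap.

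RPA12 (YJR063W), the small subunit that takes part in cleavage of the transcript by the enzyme, was the subunit gene not called. It had 20.1, 25.0 and 29.4 CPM at SDS 0.5 h, against 42.9, 42.4 and 36.4 CPM in the control, a log2 change of -0.71 (SE 0.16, adjusted p = 0.000196) that stayed inside the fold limit. At EtOH 0.5 h it had 63.9, 67.7 and 68.9 CPM, above all 3 controls, a log2 change of 0.72 (SE 0.15, adjusted p = 0.00103) that also stayed inside the limit. At SDS 8 h it reached 69.0, 67.1 and 67.1 CPM, again above all controls, with a log2 change of 0.74 (SE 0.15, adjusted p = 0.000186). At SDS 8 h the other subunits had log2 changes from -0.21 for RPA190 to 0.20 for RPA34. RPA34 stood above the control at EtOH 0.5 to 8 h, with log2 changes of 0.46 to 0.56, whereas RPA190 lay between 0.05 and -0.59 over the same times.

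**Figure D2:**
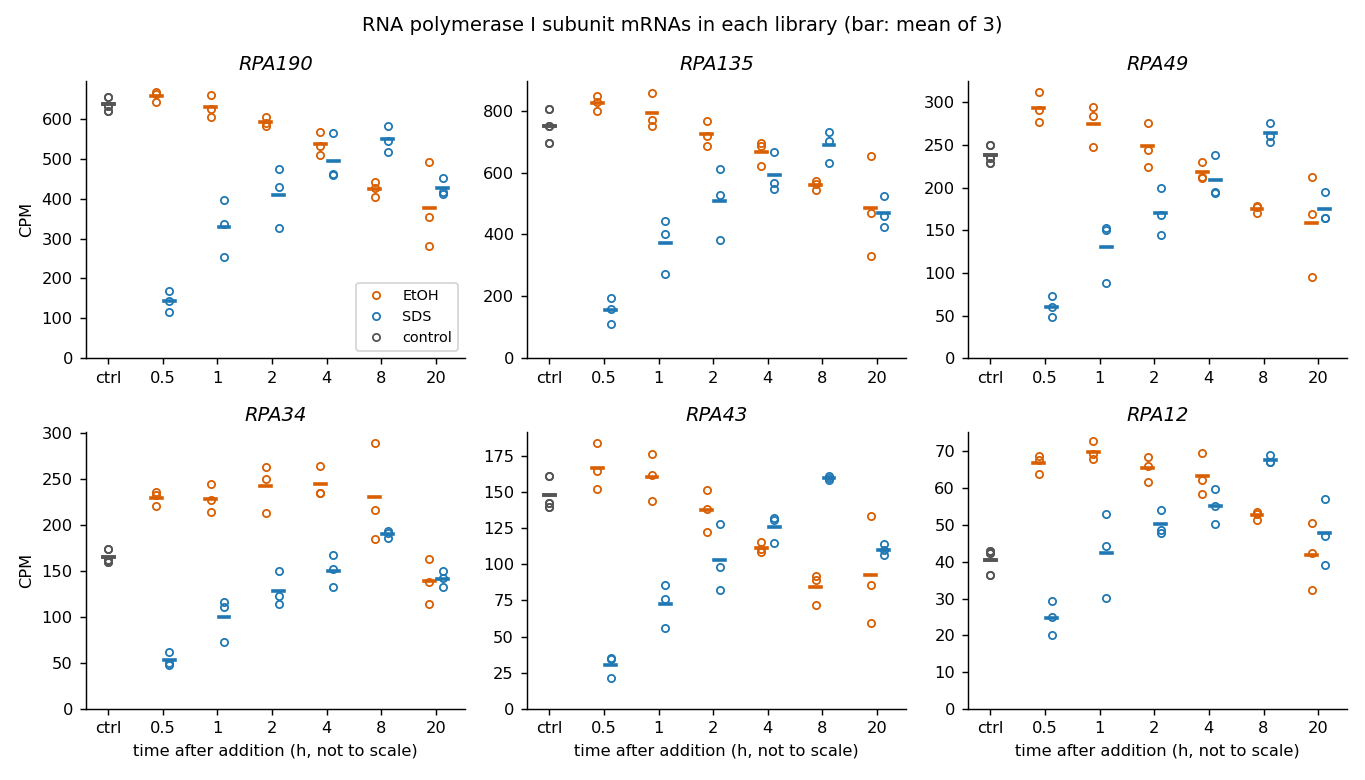
Expression in CPM (vertical axis, from 0) of the 6 RNA polymerase I subunit genes in each library by time after addition (horizontal axis, in h, not to scale), with bars for the mean of 3 libraries; EtOH is orange, SDS blue and the control grey. RPA190, RPA135, RPA49, RPA34 and RPA43 are lowest at SDS 0.5 h and climb to 8 h, whereas all 3 RPA12 libraries at SDS 8 h lie above the controls.

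The 3 box C/D snoRNP genes fell together at SDS 0.5 h, with a median log2 change of -2.01: NOP1, the methyltransferase called fibrillarin in animals, and its partners NOP56 and NOP58. Per kilobase of gene, NOP1 had the highest control level of the 58 genes, 1172 ± 39.3 CPM per kb (SD, n = 3). NOP1 had 237, 296 and 325 CPM at SDS 0.5 h, against 1126, 1137 and 1198 CPM in the control, a log2 change of -2.01 (SE 0.15, adjusted p = 5.86e-13). NOP56 (YLR197W) had 140.3, 183 and 193 CPM at SDS 0.5 h, against 819.5, 823 and 846 CPM in the control, a log2 change of -2.27 (SE 0.19, adjusted p = 4.05e-12). The log2 change of NOP58 was -1.91 (SE 0.16, adjusted p = 4.69e-12). At EtOH 0.5 h the log2 changes of the 3 genes were 0.10 to 0.12.

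In the box H/ACA snoRNP, CBF5, the pseudouridine synthase, and its partners GAR1 and NHP2 fell at SDS 0.5 h, with a median log2 change of -1.78. GAR1 (YHR089C) had 90.3, 111 and 114 CPM at SDS 0.5 h, against 433, 417 and 461 CPM in the control, a log2 change of -2.05 (SE 0.18, adjusted p = 2.27e-11). NHP2 had 87.5, 94.2 and 105 CPM at SDS 0.5 h, against 230.5, 232 and 263 CPM in the control, a log2 change of -1.34 (SE 0.15, adjusted p = 3.55e-09). Neither gene's groups overlapped.

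Of the 18 genes of the small-subunit processome and 40S assembly, 15 fell at SDS 0.5 h, with a median log2 change of -1.57. ENP2, an essential nucleolar protein of the processome, moved farthest. It had 31.7, 44.0 and 48.9 CPM at SDS 0.5 h, against 235, 215 and 249 CPM in the control, a log2 change of -2.49 (SE 0.19, adjusted p = 4.67e-13). NSR1, the yeast relative of nucleolin, had 94.9, 129.7 and 145 CPM at SDS 0.5 h, against 455, 437 and 521 CPM in the control, a log2 change of -1.93 (SE 0.22, adjusted p = 3.82e-09). The 3 genes that were not called are also processome components: UTP22 had a log2 change of -0.58 (SE 0.15, adjusted p = 0.00149), UTP15 of -0.74 (SE 0.18, adjusted p = 0.000765) and SOF1 of -0.35 (SE 0.15, adjusted p = 0.0504).

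SOF1 (YLL011W) was the only one of the 58 with an adjusted p above 0.05 at SDS 0.5 h. It had 47.6, 54.9 and 61.1 CPM at that time, against 66.7, 68.1 and 73.7 CPM in the control, so the groups did not overlap although the difference was small. At EtOH 0.5 h it had 121, 130.1 and 117 CPM, against the same controls, a log2 change of 0.82 (SE 0.15, adjusted p = 0.000276) inside the fold limit. Its level stayed above the control at every EtOH time, with log2 changes of 0.54 to 0.83.

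Of the 6 genes for RNA helicases of 60S assembly, 5 fell at SDS 0.5 h, with a median log2 change of -1.87. HAS1, which acts in the assembly of both subunits, had 54.0, 70.8 and 79.8 CPM at SDS 0.5 h, against 328, 339 and 376 CPM in the control, a log2 change of -2.35 (SE 0.18, adjusted p = 1.25e-12). SPB4 was the exception, with 53.1, 56.9 and 63.4 CPM at SDS 0.5 h, against 100.1, 96.5 and 106 CPM in the control. Its log2 change of -0.80 (SE 0.10, adjusted p = 3.95e-08) stayed inside the fold limit.

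All 13 genes for nucleolar 60S assembly factors fell at SDS 0.5 h, with a median log2 change of -1.77. NOP7 (YGR103W, chrVII:695417-697234 in R64), a scaffold that joins Erb1 and Ytm1 in early 60S particles, had 70.6, 88.5 and 110.3 CPM at SDS 0.5 h, against 722, 675 and 763 CPM in the control. Its log2 change of -3.00 (SE 0.21, adjusted p = 1.69e-13) was the largest of the 58. BRX1, another early 60S factor, had a log2 change of -2.61 (SE 0.20, adjusted p = 6.27e-13). NIP7, which binds early 60S particles, had 17.7, 20.4 and 23.6 CPM at SDS 0.5 h, against 95.8, 94.4 and 94.5 CPM in the control, a log2 change of -2.20 (SE 0.16, adjusted p = 1.86e-13). NOP16, a constituent of early 60S particles, had the smallest fall of the role, with a log2 change of -1.12 (SE 0.13, adjusted p = 1.49e-08), and scaling to library totals alone took it to -0.97, inside the fold limit.

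Of the 9 genes for late 60S assembly and export factors, 6 fell at SDS 0.5 h, with a median log2 change of -1.50. SDA1, needed for export of the large subunit, had 37.7, 56.0 and 66.0 CPM at SDS 0.5 h, against 359.5, 352 and 375 CPM in the control, a log2 change of -2.77 (SE 0.20, adjusted p = 2.35e-13). NUG1 (YER006W), a nuclear GTPase of 60S export, had 42.4, 53.3 and 60.1 CPM at SDS 0.5 h, against 313, 285 and 313 CPM in the control, a log2 change of -2.55 (SE 0.19, adjusted p = 4.68e-13). The 3 genes that were not called are TIF6, which keeps immature 60S subunits from joining 40S subunits, and the GTPase genes NOG1 and NOG2. Their log2 changes were -0.82 (SE 0.11, adjusted p = 4.74e-08) for TIF6, -0.96 (SE 0.21, adjusted p = 0.000225) for NOG1 and -0.90 (SE 0.25, adjusted p = 0.00244) for NOG2, and NOG2 passed the limit at -1.08 without SDS 0.5 h replicate 3.

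**Figure D3:**
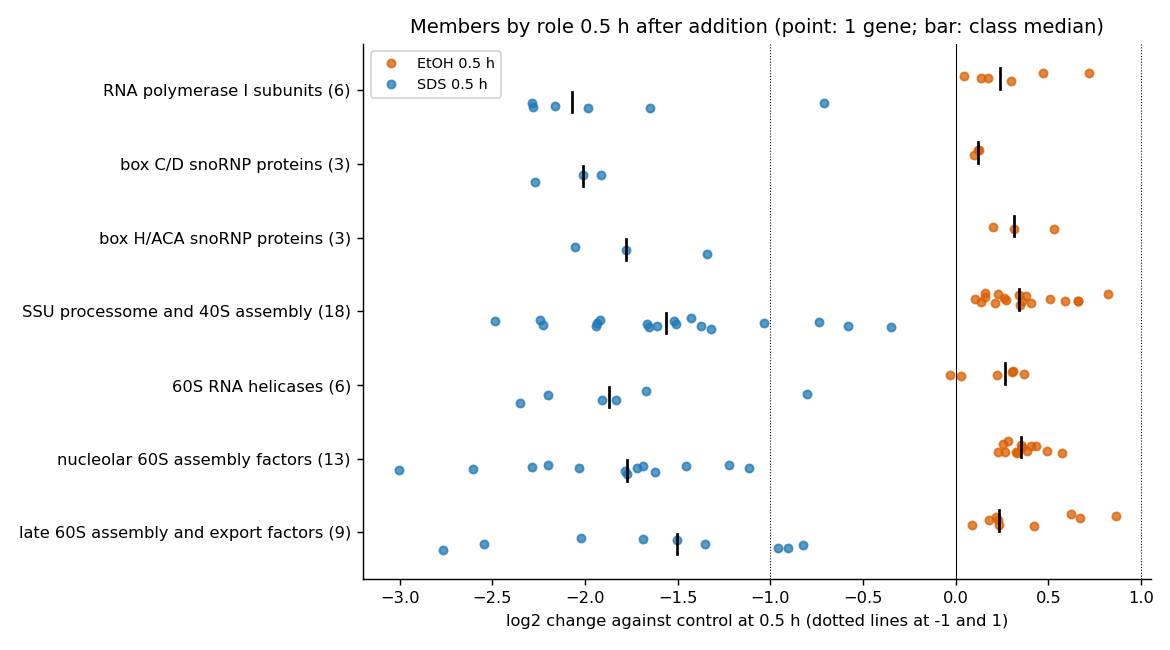
Log2 change against the control 0.5 h after addition (horizontal axis, dotted lines at -1 and 1) for each of the 58 genes, by role (vertical axis, number of genes in brackets), with EtOH in orange above SDS in blue and a bar for the median of each role. SDS medians lie between -2.07 for the polymerase subunits and -1.50 for the late 60S factors, and EtOH points lie between -0.03 and 0.86.

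The SDS change was largest at the first sampling and had mostly gone by 8 h. Of the 58 genes, 55 had their lowest SDS group mean at 0.5 h and 3 at 20 h. At SDS 1 h 17 genes were still called lower, with a median log2 change of -0.83 and 5.56% of all features called lower. The 17 became 10 without SDS 1 h replicate 1, the library in which the 58 genes averaged a log2 change of -1.13 from the control mean, against -0.68 and -0.56 in replicates 2 and 3. They became 9 when libraries were scaled by their totals alone. At SDS 2 h NOP7 alone was called lower, at -1.01 (SE 0.20, adjusted p = 0.000101), with a median of -0.40 over the 58 genes and 3.67% of all features called lower. Without control replicate 3 (-0.96) or SDS 2 h replicate 2 (-0.87) NOP7 was inside the fold limit, as it was with no filter on low counts (-0.98) or with totals alone (-0.89).

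Between SDS 0.5 h and SDS 1 h, 28 of the 58 genes rose and none fell, against 1.72% of all features called higher, and the median log2 change of the 58 was 0.96. The largest was that of NSR1, which had 224, 391 and 471 CPM at SDS 1 h, against 94.9, 129.7 and 145 CPM at SDS 0.5 h, a log2 change of 1.55 (SE 0.22, adjusted p = 3.14e-06). NUG1 had 109, 144 and 177 CPM at SDS 1 h, against 42.4, 53.3 and 60.1 CPM at SDS 0.5 h, a log2 change of 1.46 (SE 0.19, adjusted p = 7.69e-07). In NSR1 and NUG1 the lowest library at SDS 1 h stood above the highest at SDS 0.5 h. The count of 28 became 15 without SDS 1 h replicate 3 and 16 without SDS 0.5 h replicate 1. With the replicate number as a block it was 28 again.

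Later steps were smaller than the fold limit. No member was called in the steps from 1 to 2 h, 2 to 4 h or 4 to 8 h of SDS by edgeR or by DESeq2, where 0.901%, 1.15% and 1.79% of all features were called in either direction. At an unadjusted edgeR p under 0.05, 44, 2 and 16 of the 58 were higher in these steps and none was lower. The share of all features at that unadjusted limit was not counted. The median log2 changes of the 58 were 0.41, 0.21 and 0.27.

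At SDS 4 h and SDS 8 h the median log2 changes of the 58 genes from the control were -0.19 and 0.03, and none was called lower, against 2.79% and 2.03% of all features. At an unadjusted edgeR p under 0.05, 18 of the 58 were lower and 6 higher at SDS 4 h, and 1 was lower and 10 higher at SDS 8 h. The share of all features at that unadjusted limit was not counted, so these counts have no background beside them. DESeq2 called none lower at either time. Scaling by totals alone moved the SDS 4 h median to 0.01. The gene called higher at these times was NOG2 (YNR053C, chrXIV:721120-723112 in R64), and 7.69% and 4.11% of all features were called higher. NOG2 had 272, 293 and 335 CPM at SDS 4 h and 298, 343 and 366 CPM at SDS 8 h, against 139.8, 122 and 154 CPM in the control. All 6 of these SDS libraries lay above the controls, with log2 changes of 1.11 (SE 0.25, adjusted p = 0.000336) and 1.27 (SE 0.25, adjusted p = 0.000135). Its reads cannot be separated here from those of SNR191, the snoRNA gene inside it.

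At SDS 20 h none of the 58 genes passed the fold limit, against 1.97% of all features called lower, and DESeq2 also called none. Without a fold limit, 31 of the 58 were lower at an adjusted p under 0.05, against 16.1% of all features. At an unadjusted p under 0.05, 42 were lower, with no share of all features counted. In a fit of the compared groups alone the 31 became 48. The median log2 change was -0.45. The largest was that of SDA1, with 173, 181 and 216 CPM at SDS 20 h, against 359.5, 352 and 375 CPM in the control, a log2 change of -0.93 (SE 0.19, adjusted p = 0.000228). Every SDA1 library at SDS 20 h lay below every control, and without SDS 20 h replicate 3 SDA1 and 1 further gene passed the limit. From SDS 8 h to SDS 20 h NOG2 fell, with 109.8, 135 and 185 CPM at SDS 20 h, against 298, 343 and 366 CPM at SDS 8 h, a log2 change of -1.23 (SE 0.25, adjusted p = 0.000721). It was the only one of the 58 called in that step, where 1.64% of all features were called lower, and the median of the 58 was -0.53. The count of 1 became 6 without SDS 20 h replicate 3, 4 without SDS 8 h replicate 1 and 2 without SDS 8 h replicate 2.

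At the first EtOH times the differences from the control were small, and most lay above 0. None of the 58 genes was called at EtOH 0.5, 1, 2 or 4 h by edgeR or DESeq2, against 1.26%, 1.25%, 1.28% and 1.72% of all features called lower and 0.918%, 1.1%, 1.56% and 3.29% called higher, so these counts of 0 are near the background. Their median log2 changes were 0.31, 0.24, 0.11 and -0.10 at these times. Without a fold limit, 14, 11 and 10 of the 58 were higher at an adjusted p under 0.05 at 0.5, 1 and 2 h, against 6.52%, 7.24% and 10.7% of all features. At an unadjusted p under 0.05, 25, 18, 15 and 10 were higher at the 4 times, and 7 were lower at 4 h. No share of all features was counted at that unadjusted limit. Fits of the compared groups alone raised the counts without a fold limit to 45, 38 and 21, and leaving out 1 library lowered them to as few as 4, 5 and 6, each time without control replicate 2, and the last 2 also without EtOH 1 h replicate 3 and EtOH 2 h replicate 3. Scaling by totals alone moved the EtOH 4 h median to 0.03.

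The members that stood highest at EtOH 0.5 h were NOG2, SOF1 and RPA12. NOG2 had 250.2, 259.5 and 248 CPM at EtOH 0.5 h, against 139.8, 122 and 154 CPM in the control, a log2 change of 0.86 (SE 0.25, adjusted p = 0.0152). NHP2 had 322, 356 and 368 CPM at EtOH 0.5 h, against 230.5, 232 and 263 CPM in the control, a log2 change of 0.53 (SE 0.15, adjusted p = 0.0132). HAS1 stood lowest, with a log2 change of -0.03 (SE 0.17, adjusted p = 0.935). Its EtOH libraries overlapped the controls.

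At EtOH 8 and 20 h most of the 58 genes lay below the control. NOP56 was called lower at 8 h, and NOP56 and NOP7 at 20 h, against 3.02% and 4.25% of all features, and none was called higher, against 7.2% and 9.67%. NOP56 had 394, 411 and 412 CPM at EtOH 8 h and 557, 408 and 226 CPM at EtOH 20 h, against 819.5, 823 and 846 CPM in the control. Its log2 changes were -1.03 (SE 0.18, adjusted p = 1.52e-05) at 8 h and -1.06 (SE 0.18, adjusted p = 8.3e-06) at 20 h. NOP7 had 447, 317 and 201 CPM at EtOH 20 h, against 722, 675 and 763 CPM in the control, a log2 change of -1.16 (SE 0.20, adjusted p = 1.02e-05). The 3 EtOH 20 h libraries were spread widely in both genes, yet all lay below the controls. The lowest EtOH group mean came at 20 h for 48 genes, at 8 h for 7 and at 4 h for 3.

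Over the 58 genes the median log2 change was -0.31 at EtOH 8 h and -0.48 at EtOH 20 h. Without a fold limit, 24 were lower at 8 h and 39 at 20 h, against 27.9% and 28.5% of all features, and 6 and 2 were higher. The share of all features higher without a fold limit was not counted at these times, so the 6 and 2 have no background beside them. In a fit of the compared groups alone the 39 became 15. Scaling by library totals alone removed the 1 and the 2 calls, moved the medians to 0.03 and -0.23 and left 7 and 21 genes without a fold limit. That scaling also moved the median of all features, to 0.36 in place of 0.01 at 8 h and to 0.29 in place of 0.03 at 20 h. Relative to all features the median of the 58 was -0.33 under either scaling at 8 h, and -0.51 under either at 20 h. A change of scaling shifts all features nearly alike, so this relative value stays nearly the same by construction and is no test of the fall. The call at 8 h was lost without EtOH 8 h replicate 1, where the log2 change of NOP56 was -0.95, and with no filter on low counts, where it was -0.98. The 2 calls at 20 h became 0 without EtOH 20 h replicate 3, 12 without EtOH 20 h replicate 1 and 4 without control replicate 2. The 58 genes averaged log2 changes of -0.08, -0.44 and -0.91 from the control mean in replicates 1, 2 and 3 of EtOH 20 h.

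From EtOH 8 h to EtOH 20 h GAR1 fell. GAR1 had 301, 212 and 167 CPM at EtOH 20 h, against 348, 495 and 683 CPM at EtOH 8 h, and the groups did not overlap. It was the only one of the 58 called in that step, with a log2 change of -1.16 (SE 0.18, adjusted p = 1.61e-05), against 1.34% of all features called lower. The call was lost without EtOH 8 h replicate 3 or EtOH 20 h replicate 3 and in a fit of the compared groups alone, and the count became 2 without replicate 1 of either group. No member was called in the earlier EtOH steps by edgeR or DESeq2, where 0%, 0%, 0.311% and 1.93% of all features were called from 0.5 to 1 h, 1 to 2 h, 2 to 4 h and 4 to 8 h. At an unadjusted p under 0.05, 0, 0, 2 and 21 of the 58 were lower in these steps and none was higher, with no share of all features counted.

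At matched times the EtOH libraries were set directly against the SDS libraries, a comparison in which the shared controls cancel. At 0.5 h 56 of the 58 genes were higher in EtOH than in SDS, against 12.5% of all features called higher, with a median log2 difference of 2.09. The 2 others were UTP22 at 0.74 (SE 0.15, adjusted p = 8.86e-05) and SPB4 at 0.83 (SE 0.10, adjusted p = 1.44e-08), both inside the fold limit. NOP7 had the largest difference, with 828, 857 and 893 CPM in EtOH, against 70.6, 88.5 and 110.3 CPM in SDS, a log2 difference of 3.26 (SE 0.22, adjusted p = 1.95e-14). SDA1 came next, with 391, 418 and 421 CPM in EtOH, against 37.7, 56.0 and 66.0 CPM in SDS, a log2 difference of 2.94 (SE 0.20, adjusted p = 4.01e-14). Neither gene's groups overlapped, and the lowest EtOH library held more than the highest SDS library in both.

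At 1 h 36 genes were higher in EtOH, against 7.57% of all features, with a median of 1.06. NOP7 had 770.1, 804 and 920.2 CPM in EtOH, against 164, 232 and 245 CPM in SDS, a log2 difference of 1.96 (SE 0.20, adjusted p = 1.34e-09). NIP7 followed, at 1.60 (SE 0.15, adjusted p = 1.03e-10). Without SDS 1 h replicate 1 the count was 16, and with totals alone 17. At 2 h GAR1, NOP7 and NIP7 were higher in EtOH, against 4.34% of all features, with a median over the 58 of 0.53, and without SDS 2 h replicate 2 the count was 1. GAR1 had 488, 525 and 638 CPM in EtOH at 2 h, against 252, 230.2 and 219 CPM in SDS, a log2 difference of 1.24 (SE 0.18, adjusted p = 7.62e-07). NOP7 had 719, 762 and 869 CPM in EtOH at 2 h, against 398, 296 and 379 CPM in SDS, a log2 difference of 1.13 (SE 0.20, adjusted p = 1.85e-05). The lowest EtOH library lay above the highest SDS library in both. At 4 h GAR1 alone was called higher, against 4% of all features. GAR1 had 485, 544 and 694 CPM in EtOH at 4 h, against 256, 266 and 291 CPM in SDS, a log2 difference of 1.08 (SE 0.18, adjusted p = 5.85e-06) that was 0.92 without EtOH 4 h replicate 3.

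At 8 and 20 h none of the 58 genes was called between the stresses by edgeR or DESeq2, against 8.67% and 13.8% of all features called in either direction. At an unadjusted p under 0.05, 28 were lower and none higher in EtOH at 8 h, and 12 were lower and 10 higher at 20 h. Again no share of all features was counted at that limit. The median log2 differences were -0.34 and -0.04. Totals alone moved them to -0.002 and 0.24. Of the single genes, NSR1 stood lowest in EtOH at 8 h, with 558, 463 and 326 CPM in EtOH, against 845, 813 and 907 CPM in SDS, a log2 difference of -0.93 (SE 0.21, adjusted p = 0.000594), and it passed the fold limit at -1.05 without EtOH 8 h replicate 1. SOF1 stood highest in EtOH at 20 h, with 116, 99.4 and 88.5 CPM in EtOH, against 39.5, 48.3 and 71.2 CPM in SDS, a log2 difference of 0.94 (SE 0.15, adjusted p = 5.48e-06). Leaving out SDS 20 h replicate 3 or EtOH 20 h replicate 3 took SOF1 past the limit, at 1.20 and 1.03, as did totals alone, at 1.22. Leaving out EtOH 20 h replicate 1 took GAR1 past it, at -1.04.

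In edgeR's quasi-likelihood test over the 6 times together, with an absolute log2 change of at least 1 at any time, 51 of the 58 genes were called for SDS, against 25% of all features, 2 for EtOH, against 18.1%, and 56 for EtOH against SDS, against 36.4%. Over single SDS times, 8 of the 58 were never called lower, 33 at 1 time, 16 at 2 times and NOP7 at 3.

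As a share of all counts, before any scaling between libraries, the 58 genes held 1.60 ± 0.054% in the control (SD, n = 3 libraries in every group). At EtOH 0.5 h they held 1.86 ± 0.048%, at EtOH 1 h 1.83%, at EtOH 2 h 1.75%, at EtOH 4 h 1.66%, at EtOH 8 h 1.62% and at EtOH 20 h 1.33 ± 0.342%. At SDS 0.5 h they held 0.502 ± 0.091%, at SDS 1 h 0.971%, at SDS 2 h 1.28%, at SDS 4 h 1.56%, at SDS 8 h 1.66% and at SDS 20 h 1.16 ± 0.103%. The 3 SDS 0.5 h libraries held 0.403%, 0.520% and 0.583%, all far below the lowest control at 1.54%. The 3 EtOH 20 h libraries held 1.66%, 1.33% and 0.980%, of which the first lay above the highest control at 1.65%.

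**Figure D4:**
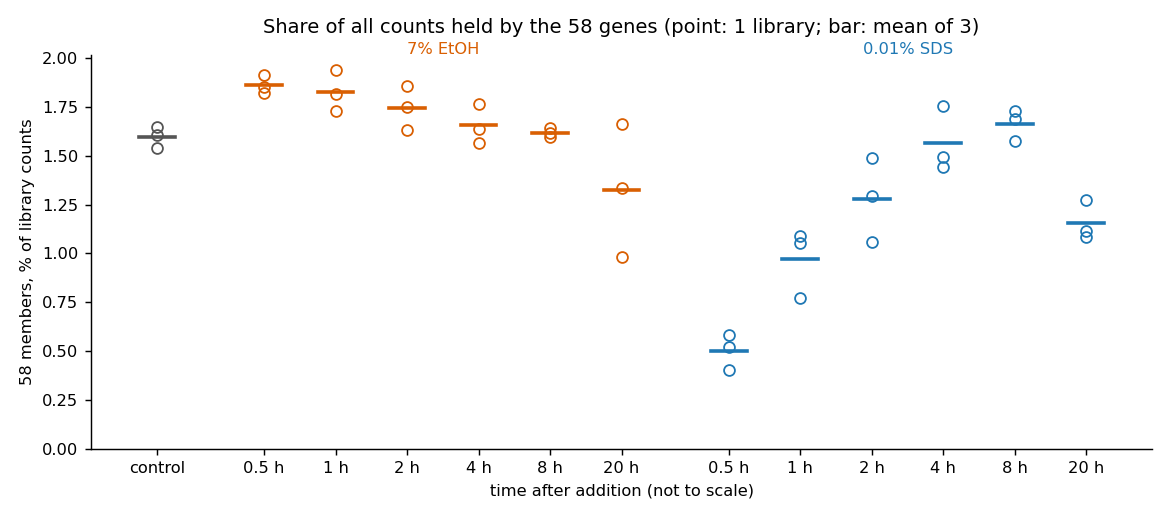
Percent of all counts of a library held by the 58 genes together (vertical axis, from 0) in the control and by time after addition of EtOH and of SDS (horizontal axis, not to scale); points are libraries and bars the mean of 3. The share is 1.60% in the control, 0.502% at SDS 0.5 h and 1.86% at EtOH 0.5 h, and the EtOH 20 h libraries are the most widely spread.

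The motifs in the promoters shown above were set beside the change of each gene. The 47 genes with both cores had a median log2 change of -1.91 at SDS 0.5 h and of 0.27 at EtOH 0.5 h. The 7 genes with a PAC core and no RRPE core (MAK5, NOP16, LSG1, IMP3, SOF1, NOP12 and NOP4), of which 3 (LSG1, SOF1 and NOP4) hold the longer RRPE form, had medians of -1.23 in SDS and 0.38 in EtOH. UTP4 and UTP15, with an RRPE core and no PAC core, had medians of -1.18 and 0.52. UTP22 and RPA12 held neither core in the window, and had medians of -0.64 and 0.44. Genes with both cores reached up to -0.80 at SDS 0.5 h, a value held by SPB4, so their range overlaps those of the groups with 1 core. UTP22 and RPA12 lay above that range at -0.58 and -0.71. SOF1 at -0.35 and UTP15 at -0.74, which hold 1 of the cores, also lay above it. Split by the longer forms, the medians at SDS 0.5 h lay closer together. They were -1.91 with and -1.67 without the longer PAC form, and -1.78 with and -1.68 without the longer RRPE form. The groups by core were formed from the sequence alone, but 3 of them hold few genes, and no test was made on any split.

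**Figure D5:**
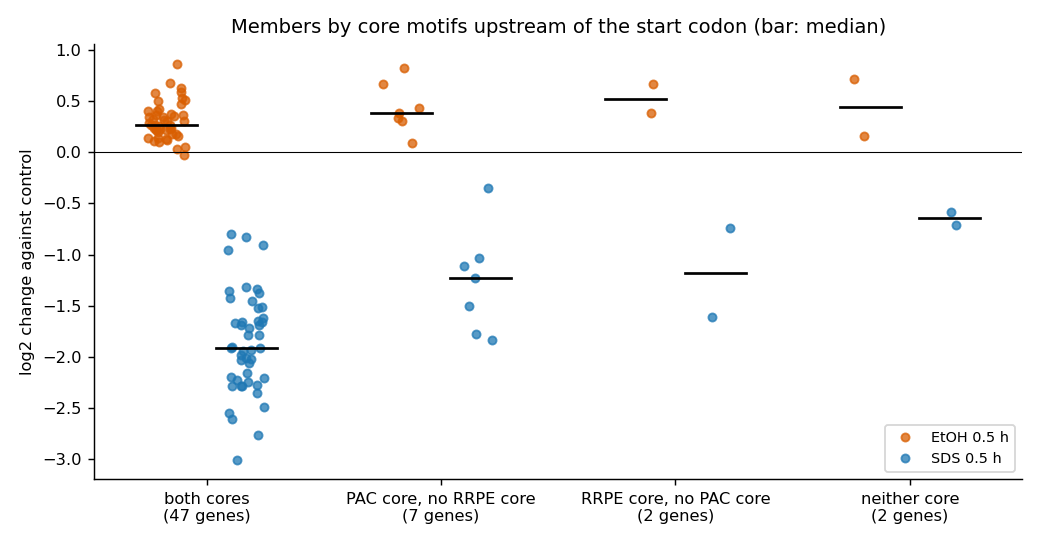
Log2 change against the control at 0.5 h (vertical axis) for the 58 genes grouped by the core motifs within 300 bases before the start codon (horizontal axis, number of genes in brackets), with EtOH in orange left of SDS in blue and bars for medians. SDS medians are -1.91 with both cores, -1.23 with the PAC core and no RRPE core, -1.18 with the RRPE core and no PAC core and -0.64 with neither core; 3 of the 7 genes without an RRPE core but with a PAC core hold the longer RRPE form.

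Other genes of the same pathway were read from lists chosen by function. Of 108 further ribosome biogenesis genes, 77 fell at SDS 0.5 h and none rose, where 10.6% of all features were called lower, with a median log2 change of -1.32. The largest fall was that of NOP13, a nucleolar protein, with 17.1 ± 4.41 CPM at SDS 0.5 h, against 131.7 ± 3.06 CPM in the control (SD, n = 3 each), a log2 change of -2.95 (SE 0.20, adjusted p = 3.82e-14). At EtOH 0.5 h 1 of the 108 was called higher, a share near the 0.918% of all features. It was LCP5, a processome protein, with 133.5 ± 7.10 CPM in EtOH, against 66.0 ± 5.21 CPM in the control (SD, n = 3 each), a log2 change of 1.02 (SE 0.16, adjusted p = 4.8e-05). The median of the 108 was 0.39 at EtOH 0.5 h and -0.23 at EtOH 20 h, where ACL4 alone was called, at -1.08. Among all features 4.25% were called lower at EtOH 20 h.

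A list of 11 genes for initiation by RNA polymerase I also holds REB1 and HMO1, which are not initiation factors in the strict sense. Log2 changes of the 11 at SDS 0.5 h ran from -0.61 for REB1 to 0.26 for HMO1, all inside the fold limit, with a median of -0.34. RRN11, a subunit of the core factor, rose in EtOH, with 66.9 ± 3.34 CPM at EtOH 0.5 h and 108.5 ± 22.6 CPM at EtOH 20 h, against 24.7 ± 2.83 CPM in the control (SD, n = 3 each). Its log2 changes were 1.44 (SE 0.24, adjusted p = 0.000116) and 2.14 (SE 0.24, adjusted p = 1.42e-08). RRN11 also rose at SDS 2 h, with a log2 change of 1.60, and at each of these 3 times it was the only gene of the 11 called. At these times 0.918%, 9.67% and 5.8% of all features were called higher. At the other EtOH times and at SDS 4 and 8 h 1 of the 11 was also called higher, against 1.1% to 7.69% of all features. RRN11 had the largest change there, at 1.36, 1.33, 1.49 and 2.04 at EtOH 1, 2, 4 and 8 h. At SDS 4 and 8 h it stood at 1.64 and 1.52.

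Of 8 subunits shared between polymerases, a list that also holds RPA14 of RNA polymerase I, 2 fell at SDS 0.5 h. These were RPC40, shared by RNA polymerases I and III, with 144 ± 19.3 CPM at SDS 0.5 h, against 383 ± 8.98 CPM in the control, and RPB8, shared by all 3 polymerases, at a log2 change of -1.05. Of 10 RNA polymerase III subunits, 3 fell (RPC31, RPC82 and RET1), with RPC31 at -1.45 and a median of -0.89. Beside the 2 and 3 calls of these short lists, 10.6% of all features were called lower at SDS 0.5 h. The 7 subunits of RNA polymerase II had log2 changes from -0.42 for RPB9 to 0.15 for RPB11, with a median of -0.10.

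Of 21 regulators of these genes, 2 fell at SDS 0.5 h, a share near the 10.6% of all features called lower, and the median of the list was 0.00. TOD6, a repressor that binds the PAC motif, had 21.3 ± 3.48 CPM at SDS 0.5 h, against 74.5 ± 4.40 CPM in the control (SD, n = 3 each), a log2 change of -1.80 (SE 0.23, adjusted p = 5.76e-08). RAP1, an activator of ribosomal protein genes, was at -1.02. At EtOH 8 h RAP1 was called lower, at -1.23, and IFH1, a coactivator of ribosomal protein genes, higher, at 1.39. Among all features 3.02% were called lower and 7.2% higher at that time. At SDS 4 h 2 of the 21 were called higher, against 7.69% of all features, and IFH1 had the largest change, at 1.11. IFH1 stood at 0.84 and 0.90 at SDS 2 and 8 h, where none of the 21 was called. At EtOH 20 h 1 of the 21 was called, IFH1 at 1.22, against 9.67% of all features called higher. Of 16 genes of purine and pyrimidine synthesis, 10 fell at SDS 0.5 h, against 10.6% of all features called lower, with a median of -1.25. ADE17, an enzyme of purine synthesis, had 79.2 ± 10.2 CPM at SDS 0.5 h, against 539 ± 39.2 CPM in the control.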

How the data were processed

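The authors deposited whole-number read counts per feature for each BY4741 library, and the 39 deposited count columns were used as they stand. Per the submitters' processing notes, reads were handled with featureCounts 2.0.1, STAR 2.7.8, Trimmomatic 0.39 and FastQC 0.11.9, and the build was R64. The sources used here do not give whether counting used strand or how reads with several matches were treated. The *S. pastorianus* libraries of the series were not used here.

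Counts were fitted with edgeR 4.0.16 in R 4.3.3 (TMM scaling, filterByExpr, quasi-likelihood test), with 1 coefficient for each of 13 groups and all 39 libraries, so that groups share 1 estimate of the spread. Adjusted p-values are Benjamini-Hochberg values over 6101 features, and every adjusted p in the text comes from this fit. CPM are scaled by TMM, and log2 changes have the first-named group on top. SE is the absolute log2 change divided by the square root of the F statistic. Library totals ranged from 3105804 to 21167236, and 3 counts, the limit that a count of 0 allows, are 0.966 CPM in the smallest library and 0.142 CPM in the largest, which covers counting error only. The edgeR fit was tested on simulated counts for SDS 0.5 h against the control only.

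Alternatives were DESeq2 1.42.0, RLE scaling, library totals alone, no filter on low counts, fits of the compared groups alone, a replicate block, and leaving out each library of a comparison. Same-numbered libraries were compared by the correlation of their deviations from group means. Only for SDS 1 h against 0.5 h were all 3 pairs over 0.1 (lowest 0.128), which pairs the libraries of that step by this measure, and its count with the replicate as a block is given beside the count without it. All other comparisons were read without a block. The members and lists were chosen with earlier results of these data known. Values are given for the 6 RNA polymerase I subunits, for the members of each other role with the largest and smallest mean change at 0.5 h over both stresses, for NOP7, NUG1, NOP1 and NSR1, for members called against most of their role, for the 2 largest called differences between the stresses at each time, and for the largest called rise and fall of each other list at 0.5 h. UTP15, UTP22, TIF6, NOG1, BRX1, SOF1 at later times and the other genes named outside this rule were chosen after their values were seen.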

Additional observations from a re-analysis of the deposited data

Results flagged for a closer look

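The change of many of the 58 genes differed between EtOH and SDS at the same time after addition, by edgeR's test of the difference itself. The number called was 56 after 0.5 h and 36 after 1 h, then 3 after 2 h and 1 after 4 h, each higher in EtOH. The median log2 differences at these times were 2.09, 1.06, 0.53 and 0.14.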

How the results depend on the processing

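The 50 genes lower at SDS 0.5 h and the 56 higher in EtOH than in SDS at 0.5 h stayed within 1.5 times under every alternative run, at 49 to 52 and 55 to 56 when 1 library was left out. Scaling by library totals alone gave 9 genes lower at SDS 1 h, 0 at SDS 2 h, 0 at EtOH 8 h and 0 at EtOH 20 h, with 7 and 21 lower without a fold limit at EtOH 8 and 20 h. It gave 17 genes different between EtOH and SDS at 1 h, 3 at 20 h and 3 between SDS 20 h and 8 h. With no filter on low counts, 0 genes were lower at SDS 2 h and 0 at EtOH 8 h. Fits of the compared groups alone, without a fold limit, gave 48 lower at SDS 20 h, 45, 38 and 21 higher at EtOH 0.5, 1 and 2 h, and 15 lower at EtOH 20 h. With the fold limit they gave 2 for SDS 20 h against 8 h and 0 for EtOH 20 h against 8 h. The cause was not tested.

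Leaving out 1 library gave 10 to 23 lower at SDS 1 h, 0 to 1 at SDS 2 h, 0 to 2 at SDS 20 h, 0 to 1 at EtOH 8 h and 0 to 12 at EtOH 20 h. Without a fold limit, 4 to 11, 5 to 10 and 6 to 9 were higher at EtOH 0.5, 1 and 2 h. Between EtOH and SDS the ranges were 16 to 44 at 1 h, 1 to 4 at 2 h, 0 to 1 at 4 h, 0 to 1 at 8 h and 0 to 2 at 20 h. The steps gave 15 to 39 for SDS 1 h against 0.5 h, 1 to 6 for SDS 20 h against 8 h and 0 to 2 for EtOH 20 h against 8 h. No named gene changed direction while called.

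Replicate numbers were not taken to pair libraries across the series, since correlations of deviations between same-numbered libraries were mostly low. Their median was 0.0406 over 234 pairs, with a lowest of -0.355. Between different numbers the median was -0.0233, and 33 of 39 libraries were closest to one of their own number. The mean log2 change of the followed genes rose in order from replicate 1 to 3 at SDS 0.5, 1, 4, 8 and 20 h. It also did so at EtOH 0.5, 1, 2 and 4 h. It did not in the control, at SDS 2 h or at EtOH 8 and 20 h. The cause of this order was not tested. All 3 pairs of SDS 1 h and 0.5 h were over 0.1, and the blocked count for that step was 28, as without the block. With the replicate as a block, 2 genes were called between SDS 20 h and 8 h in place of 1, and the other counts stayed within 1.5 times.

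Library totals alone also moved the percent of all called features that were higher, to 57.2 in place of 44.5 at SDS 0.5 h, 65.4 in place of 51 at SDS 1 h, 74.2 in place of 61.2 at SDS 2 h, 87.2 in place of 73.4 at SDS 4 h, 76.9 in place of 65.7 at EtOH 4 h, 95.4 in place of 70.5 at EtOH 8 h and 87.4 in place of 69.5 at EtOH 20 h. For EtOH against SDS the percent was 39.2 in place of 51.9 at 0.5 h, 35 in place of 50.3 at 1 h, 87.9 in place of 61.6 at 8 h and 87.2 in place of 62.4 at 20 h, and for EtOH 20 h against 8 h 44.4 in place of 59.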
